A study of Mus musculus with 6 samples.

Results

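The genes described here encode subunits of the mitochondrial respiratory chain and of the ATP synthase, in mouse tumor organoids (MTOs) that carried CRISPR guides to either of the atypical protein kinase C genes. They were chosen by symbol: protein-coding genes of the GRCm38 annotation named Nduf with a subunit letter (complex I), Uqcr (complex III), Cox4 to Cox8 (complex IV) or Atp5 (complex V, the ATP synthase), and the mt-Nd, mt-Cytb, mt-Co and mt-Atp genes of mitochondrial DNA. Of 94 annotated genes that match, 84 are among the 20756 genes analysed: 74 nuclear and 10 mitochondrial. The other 10, which include mt-Nd4l, mt-Co3, mt-Atp8, Cox4i2 and Ndufa4l2, were not analysed here.

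MTOs are intestinal tumor cells of the mouse grown in culture, here of strain C57BL/6, male, and supplied to the study by another laboratory. Both groups received no treatment and grew in advanced DMEM/F12 medium with HEPES, Glutamax, B-27 and EGF; they differ in the guide, sgPrkci (replicates 10, 11 and 12) or sgPrkcz (replicates 13, 14 and 15). Prkci encodes PKCλ/ι and Prkcz encodes PKCζ, and control-guide libraries were not analysed here, so every direction is sgPrkci relative to sgPrkcz. Total RNA was read by QuantSeq, which primes from the poly(A) tail and gives about 1 tag near the 3′ end of each transcript, so that CPM (counts per 1000000 reads counted in genes) need no division by gene length. The design gives biological replicates, but nothing says whether these were separate cultures or what else the organoids carry, and p-values then measure only the spread between these samples. The GEO labels were followed for the groups; a source table of the study sets the opposite guide names over the same library names, and with those every direction would reverse.

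The 6 libraries held 1593480 to 2815760 reads, and 1 read was worth 0.355 to 0.628 CPM. The targeted genes do not settle the labels, since a guide makes small changes in the DNA that a 3′ tag need not show: Prkci stood at 53.9, 56.5 and 46.9 CPM in sgPrkci MTOs, against 72.3, 34.5 and 59.7 CPM in sgPrkcz MTOs, and Prkcz at 2.26 to 4.62 CPM in sgPrkci and 2.93 to 5.02 CPM in sgPrkcz. Epithelial markers were abundant (6 of 6 genes, 3569 to 3991 CPM summed in sgPrkci and 4392 to 4685 CPM in sgPrkcz), and they moved between the groups: 4 of 6 were lower in sgPrkci (Cdh1, Krt18, Krt19, Cldn7) and Epcam was higher. Fibroblast and endothelial markers summed to at most 2.34 and 1.85 CPM in any library. Muscle markers summed to 4.97 to 5.28 CPM in sgPrkci and 2.34 to 7.53 CPM in sgPrkcz, mostly from Tnnt2, with Ckm at 0 in all libraries, and of the immune markers only Cd68 passed the filter on low values, at 7.94 to 11.4 CPM in sgPrkci and 4.10 to 6.68 CPM in sgPrkcz, while Ptprc, which all leukocytes carry, reached no more than 1.51 CPM. The part of the epithelial shift in the results below was not tested. In bulk RNA, fewer cells of a type and less RNA per cell cannot be told apart.

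The respiratory chain passes electrons from NADH (complex I) and succinate (complex II) through ubiquinone, complex III and cytochrome c to oxygen at complex IV, pumps protons on the way, and lets them back through complex V, which makes ATP. Most subunits are encoded in the nucleus and imported, whereas a core set is transcribed inside the organelle as long transcripts from both strands of mitochondrial DNA that are cut at tRNA genes, so that the 2 genomes have to supply matching parts. Intestinal epithelial cells draw on this machinery for part of the ATP that absorption and growth need, and factors such as NRF1, GABP, YY1 and the PGC-1 coactivators are known to act on the nuclear genes.

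The mitochondrial genes need their sequence first, because copies of mitochondrial DNA lie in the nuclear genome. A stretch of chromosome 1, on the minus strand, holds pseudogenes of 7 of these genes. mt-Co2 (chrM:7013-7696, plus strand) matches Gm28661 (chr1:24614885-24615565) at 681 of 681 aligned bases, and mt-Atp6 (chrM:7927-8607) matches Gm10925 (chr1:24613974-24614651) at 678 of 678. mt-Nd3 (chrM:9459-9806) differs from Gm28438 (chr1:24612775-24613119) at 1 of 345 bases. The last 75 bases of the shared stretch are shown in capitals for mt-Co2 and its copy, since 75 bases is the read length here and the letters are the same in both (build GRCm38, each written in the direction of transcription); mt-Nd4 is shown for contrast, in lower case, since its copy (Gm28439) covers only the first 876 bases and the last 502 lie outside it.
mt-Co2, chrM:7619-7693: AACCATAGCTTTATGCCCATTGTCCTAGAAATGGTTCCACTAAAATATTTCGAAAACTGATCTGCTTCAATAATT
Gm28661, chr1:24614885-24614959: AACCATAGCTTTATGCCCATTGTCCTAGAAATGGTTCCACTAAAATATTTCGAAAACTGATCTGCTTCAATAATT
mt-Nd4, chrM:11470-11544: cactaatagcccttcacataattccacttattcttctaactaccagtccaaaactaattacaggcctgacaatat

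The levels of these genes ranged widely. mt-Co2 and mt-Atp6 are listed at 0 in all 6 libraries, and mt-Nd3 had 0, 0.934 and 0.355 CPM in sgPrkci, against 0.371, 0 and 0.585 CPM in sgPrkcz, whereas mt-Nd4 was at 4133 to 8098 CPM. Gm28661 and Gm10925 are listed at 0 as well. The last 483 bases of mt-Co1 differ from Gm29216 at 1 base, and 100% of the 75-base windows in its last 300 bases also occur in other genes, against 98.7% each for mt-Co2, mt-Atp6 and mt-Nd3, but mt-Co1 stood at 941 to 1093 CPM. How reads that align to several places were counted is stated in none of the sources, and its part in the zeros was not tested, so nothing is said of these 3 genes, nor of mitochondrial complex V, which has no measured gene left.

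The remaining 7 mitochondrial genes could be fitted, and 2 of the 5 that belong to complex I fell in sgPrkci. A gene was fitted where at least 3 libraries had 5 CPM or more (9558 genes, 69 of them nuclear subunit genes and 7 mitochondrial), on log2(CPM + 1) with limma, and called at a Benjamini-Hochberg adjusted p under 0.05 over all fitted genes. Of the 7 mitochondrial genes, 2 were lower in sgPrkci and 0 higher by limma (at an unadjusted p under 0.05 also 2 and 0), in a comparison that called 40.9% of all genes, 14.4% higher and 26.5% lower. On whole reads recovered from the CPM, edgeR called 1 lower and 2 higher, and DESeq2 0 lower and 2 higher. Of all genes, edgeR called 20.2% lower and 21.0% higher, and DESeq2 14.1% and 15.2%. With both tools the 2 higher were mt-Cytb and mt-Co1. Those that fell by limma were mt-Nd4 and mt-Nd2, both parts of the proton-pumping membrane arm.

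mt-Nd4 had 5138, 6457 and 4133 CPM in sgPrkci MTOs, against 6435, 8098 and 6903 CPM in sgPrkcz MTOs. The highest sgPrkci library lay just above the lowest sgPrkcz library, so the groups overlapped. The log2 fold change was -0.46 ± 0.11 (SE, n = 3 each, limma adjusted p = 0.00174). It was -0.30 without sgPrkci replicate 12, -0.63 without sgPrkci replicate 11, and the call held whichever single library was left out. It was lost with DESeq2 (-0.33, adjusted p = 0.235) and without the intensity trend (-0.46, adjusted p = 0.085).

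mt-Nd2 had 6209, 6379 and 4186 CPM in sgPrkci, against 6106, 7241 and 6968 CPM in sgPrkcz. The groups overlapped, and replicate 12 alone stood apart among the sgPrkci libraries. The log2 fold change of -0.30 ± 0.11 (limma adjusted p = 0.0343) shrank to -0.10 without sgPrkci replicate 12 (adjusted p = 0.333), and the call was also lost without sgPrkcz replicate 14 (-0.25, adjusted p = 0.136) or 15 (-0.28, adjusted p = 0.0846). It was lost as well with TMM scaling, described below (-0.17, adjusted p = 0.197), edgeR (-0.16, adjusted p = 0.193), DESeq2 (-0.16, adjusted p = 0.559), quantile normalization (-0.08, adjusted p = 0.449) and no intensity trend (-0.30, adjusted p = 0.236), so that of 17 alternative settings 7 kept the call. Of its 75-base windows near the 3′ end 24.3% also occur in Gm13339, which was at no more than 1.26 CPM.

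The other complex I genes of mitochondrial DNA did not pass the test. mt-Nd1, at the base of the membrane arm, had 5631, 6220.1 and 4619.7 CPM in sgPrkci, against 6124, 5923 and 5596 CPM in sgPrkcz (log2 fold change -0.11, 95% interval -0.29 to 0.07). mt-Nd5 had 1198, 1208 and 901 CPM in sgPrkci, against 1008, 1162 and 1024 CPM in sgPrkcz (0.04, interval -0.15 to 0.23). mt-Nd6, the only member on the light strand, was at 60.0, 44.4 and 28.8 CPM in sgPrkci, against 36.7, 45.2 and 46.2 CPM in sgPrkcz. All 3 overlapped between groups, and mt-Nd6 had the widest spread within sgPrkci relative to its mean. Of the 7 fitted mitochondrial genes, 5 had their lowest value of all libraries in sgPrkci replicate 12, namely every mt-Nd gene.

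The single genes of complexes III and IV did not pass on the deposited scale. mt-Cytb, the cytochrome b of complex III, had 3522, 3940.4 and 3088 CPM in sgPrkci, against 3340.3, 3079 and 3005 CPM in sgPrkcz (log2 fold change 0.16 ± 0.08, adjusted p = 0.116). mt-Co1, the catalytic subunit of complex IV, had 1081, 1093 and 943 CPM in sgPrkci, against 999, 941 and 969 CPM in sgPrkcz (0.10 ± 0.07, adjusted p = 0.294). Both overlapped between groups. Without sgPrkci replicate 12, mt-Cytb passed the test (0.25, adjusted p = 0.0133), and with the scaling by trimmed means described below both passed, at 0.28 and 0.22. Both genes were also called higher by edgeR and by DESeq2.

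**Figure D1:**
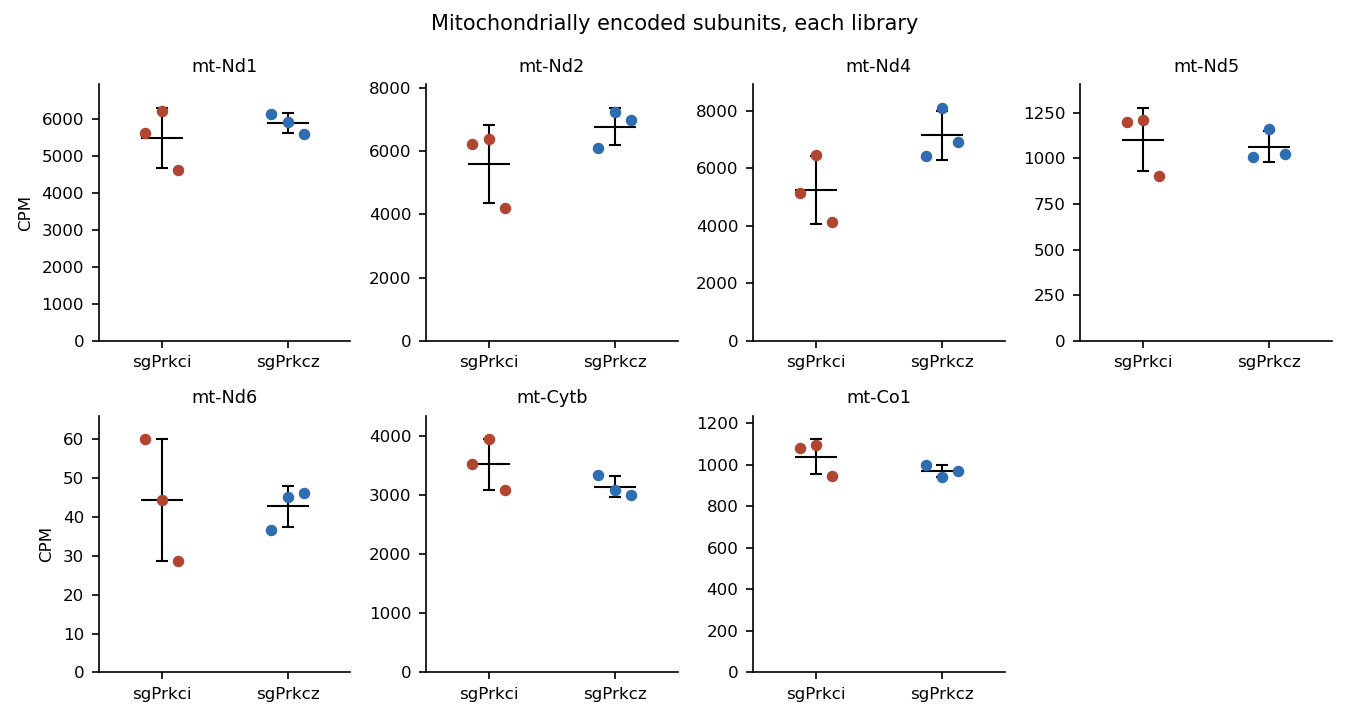
CPM of the 7 fitted mitochondrial genes in each library (points, sgPrkci replicates 10 to 12 and sgPrkcz replicates 13 to 15, in that order from left to right within a group), with the mean and SD (n = 3 each). The mt-Nd4 points lie mostly lower in sgPrkci, the groups overlap for each gene, and the third sgPrkci point is the lowest for every mt-Nd gene.

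A ratio of 2 genes within a library does not depend on how the libraries are scaled. The ratio of mt-Nd4 to mt-Cytb was 1.46, 1.64 and 1.34 in sgPrkci, against 1.93, 2.63 and 2.30 in sgPrkcz. The ratio of mt-Nd2 to mt-Cytb was 1.76, 1.62 and 1.36 in sgPrkci, against 1.83, 2.35 and 2.32 in sgPrkcz, and that of mt-Nd1 was 1.60, 1.58 and 1.496 in sgPrkci, against 1.83, 1.92 and 1.86 in sgPrkcz. In these 3 ratios the groups did not overlap, replicate 12 included. The ratios of mt-Nd5 (0.292 to 0.340 in sgPrkci, 0.302 to 0.377 in sgPrkcz) and mt-Co1 (0.277 to 0.307 in sgPrkci, 0.299 to 0.322 in sgPrkcz) overlapped. These ratios were chosen after the values were seen and are given without a test. Of the fitted mitochondrial genes, mt-Cytb had the highest log2 fold change (0.16). Those of mt-Nd4 (-0.46), mt-Nd2 (-0.30) and mt-Nd1 (-0.11) were the lowest, so this choice favours separated groups. The ratios describe these pairs only and do not say which gene moved.

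**Figure D2:**
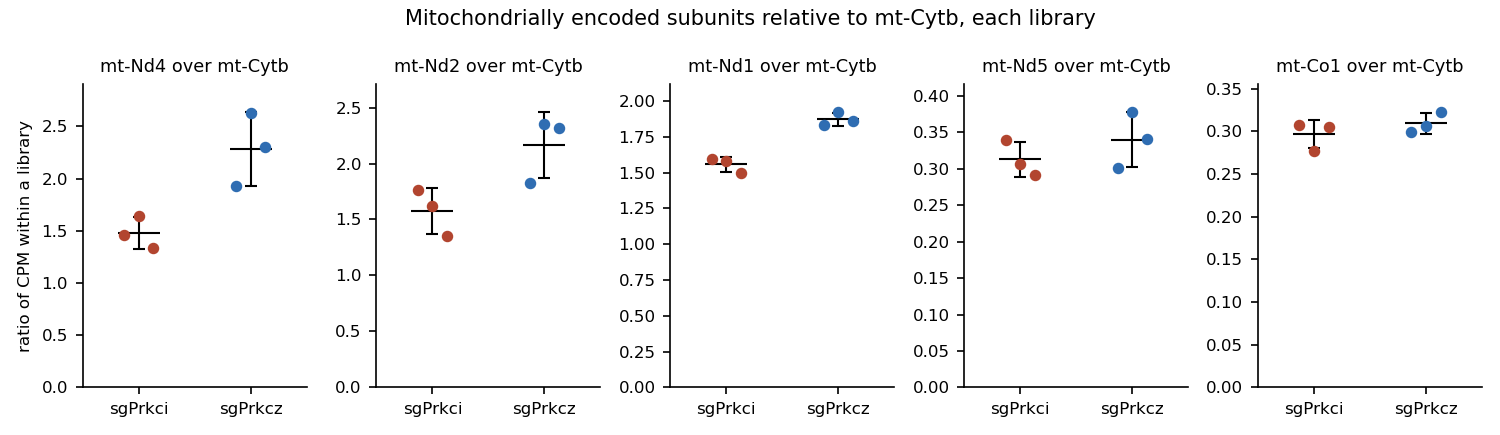
Ratio of the CPM of 5 mitochondrial genes to that of mt-Cytb within each library (points), with the mean and SD (n = 3 each). The sgPrkci points lie below all sgPrkcz points for mt-Nd4, mt-Nd2 and mt-Nd1, and the groups overlap for mt-Nd5 and mt-Co1.

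Summed over the 10 mitochondrial genes analysed, mRNA made up 22838, 25343 and 17901 CPM in sgPrkci, against 24049.6, 26489.8 and 24510.3 CPM in sgPrkcz. This sum rests on the 7 fitted genes, since mt-Co2 and mt-Atp6 were at 0 and mt-Nd3 at no more than 0.934 CPM. It also lacks mt-Nd4l, mt-Co3 and mt-Atp8, so the sum and its ratios below do not cover all mitochondrial mRNA. As a share of reads the lowest library, sgPrkci replicate 12, had 1.79% (Clopper-Pearson 95% interval 1.77 to 1.81%) and the highest, sgPrkcz replicate 14, had 2.65% (2.62 to 2.67%); such intervals cover counting error only. The sgPrkci mean was 0.881 of the sgPrkcz mean with all libraries and 0.963 without replicate 12. The 74 nuclear genes summed to 10534, 10351 and 10335 CPM in sgPrkci, against 10888, 11017 and 10108 CPM in sgPrkcz, overlapping between groups; with TMM they were apart, at 10975, 10619 and 10998 in sgPrkci, against 10334, 10493 and 9829 in sgPrkcz. The mitochondrial sum was thus 2.17, 2.45 and 1.73 times the nuclear sum in sgPrkci and 2.21, 2.40 and 2.42 times in sgPrkcz, with overlap.

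The mitochondrial ribosomal RNAs are transcribed from the same heavy strand as most of these mRNAs. mt-Rnr1 and mt-Rnr2 together had 109673, 113658 and 115929 CPM in sgPrkci, against 94959, 103088 and 105626 CPM in sgPrkcz; the groups did not overlap, but neither gene passed the limma test (mt-Rnr2 0.17 ± 0.09, adjusted p = 0.129), while edgeR and DESeq2 called both higher. The mRNA sum over the rRNA sum was 0.208, 0.223 and 0.154 in sgPrkci and 0.253, 0.257 and 0.232 in sgPrkcz, lower in every sgPrkci library. Gm42418, an rRNA-like transcript, held 101190.0 to 123635 CPM in sgPrkci and 74376 to 88200.1 CPM in sgPrkcz (log2 fold change 0.42 ± 0.10, adjusted p = 0.00191), with its highest value in sgPrkci replicate 12, the library in which the mt-Nd genes were lowest. Tags of such RNAs count in the total that CPM divides by. As a share of reads, Gm42418 was at 12.4% in sgPrkci replicate 12, against 10.3% and 10.1% in sgPrkci replicates 10 and 11. Its part in the low mt-Nd values of replicate 12 was not tested. When CPM were rescaled without mt-Rnr1, mt-Rnr2 and Gm42418, mt-Nd4 stayed lower (-0.39, limma adjusted p = 0.00412), while mt-Nd2 gave -0.23 and was not called (adjusted p = 0.0872). Without every mitochondrial gene and Gm42418 in the total, mt-Nd4 gave -0.40 (adjusted p = 0.0044) and mt-Nd2 -0.23 (adjusted p = 0.0873).

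The scale of the whole table bears on every count that follows. The median log2 fold change over all 9558 genes was -0.11, and scaling by TMM, which trims extreme genes before it sets the library factors, moved it to 0.01. With TMM the comparison called 21.2% of all genes higher and 19.3% lower. Counts are therefore given on the deposited scale and then with TMM, and medians also relative to the median of all genes.

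Of the 69 fitted nuclear subunit genes, 12 rose in sgPrkci, 20 fell and 37 missed the threshold, against 14.4% higher and 26.5% lower of all genes. With TMM, 18 were higher and 10 lower, and edgeR on the recovered reads called 17 higher and 11 lower, beside 21.0% and 20.2% of all genes. On the deposited scale their median log2 fold change was -0.02, which is 0.09 above the median of all genes. Groups that did not overlap were seen in 12 nuclear genes higher and 22 lower in sgPrkci, where 18.2% and 31.8% of all genes did so. Of the called nuclear changes, 8 exceeded 0.5 on the log2 scale and 1, Atp5g1, exceeded 1. Of the 3911 called among all genes, 2614 and 725 did so. The fitted nuclear genes were also more abundant, with a median of 119.5 CPM against 32.2 CPM for all fitted genes. The 5 nuclear genes not fitted were Ndufs5 (2.13 to 5.65 CPM), Atp5g2, Atp5l (0.355 to 2.64 CPM) and the muscle and heart isoforms Cox6a2 and Cox7a1.

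By complex, complex I had 2 genes higher and 12 lower of 35 fitted (with TMM 4 and 7), complex III 2 and 3 of 8 (2 and 1), complex IV 4 and 1 of 11 (6 and 1), and complex V 4 and 4 of 15 (6 and 1). Medians relative to all genes were -0.01 for complex I, 0.08 for complex III, 0.25 for complex IV and 0.12 for complex V, and with TMM they were -0.01, 0.09, 0.26 and 0.12. With TMM, 4 of 35 complex I genes (11.4%) were higher, beside 21.2% of all genes, and 7 of 35 (20%) were lower, beside 19.3%. All genes are placed by symbol alone, so Ndufa4 is counted here with complex I, though its protein is now placed in complex IV. Atp5s, counted with complex V and called lower, rests on 19 to 36 reads per library. Its call held in 4 of 17 alternative settings.

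**Figure D3:**
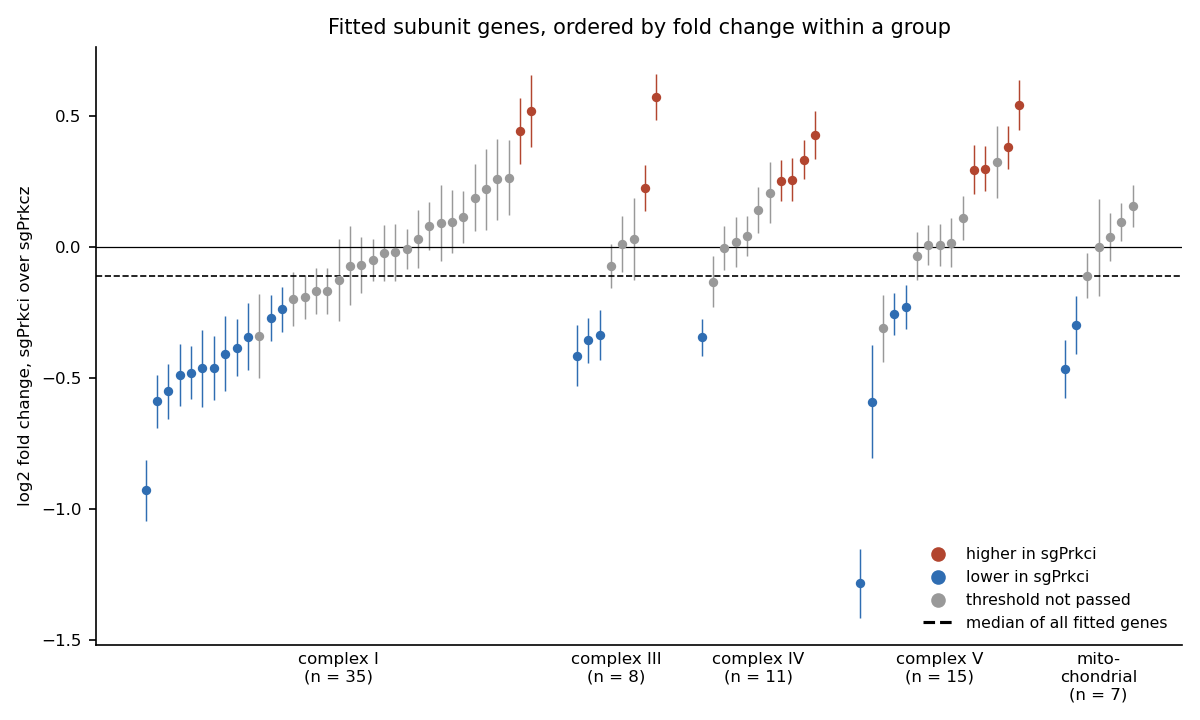
Log2 fold change of sgPrkci over sgPrkcz (limma, bars are 1 SE) of each fitted subunit gene, nuclear genes by complex (35, 8, 11 and 15 genes) and 7 mitochondrial genes, ordered within a group and coloured by call; the dashed line is the median of all 9558 genes. Complex IV has most of its points above that line and 1 gene called lower, complex I spans it on both sides, and Atp5g1 is the lowest point of all.

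On the deposited scale, summed levels separated the groups in complexes I and IV. The nuclear genes of complex I summed to 3296, 3367 and 3327 CPM in sgPrkci, against 3798, 3789.8 and 3557 CPM in sgPrkcz, with no overlap. Those of complex IV summed to 2525, 2383 and 2458 CPM in sgPrkci, against 2332, 2335 and 2249.8 CPM in sgPrkcz, again with no overlap but in the other direction. Complex III (1188 to 1267 CPM in sgPrkci, 1174 to 1294 CPM in sgPrkcz) and complex V (3294 to 3445 CPM in sgPrkci, 3127 to 3599 CPM in sgPrkcz) overlapped. Divided by the TMM factors, the complex I sums were 3434, 3454 and 3541 in sgPrkci, against 3605, 3609 and 3459 in sgPrkcz, so that the groups overlapped. Those of complex IV were 2631, 2445 and 2615 in sgPrkci, against 2213, 2223 and 2188 in sgPrkcz, still apart, and with TMM the complex V sums were apart as well (3502 to 3589 in sgPrkci, 3041 to 3428 in sgPrkcz). The ratio of the complex IV sum to the complex I sum, free of scaling, was 0.766, 0.708 and 0.739 in sgPrkci and 0.614, 0.616 and 0.633 in sgPrkcz. This ratio was not planned and is given without a test. It sets the complex with the highest median over that with the lowest, and rests on the same sums, so it is no separate result.

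**Figure D4:**
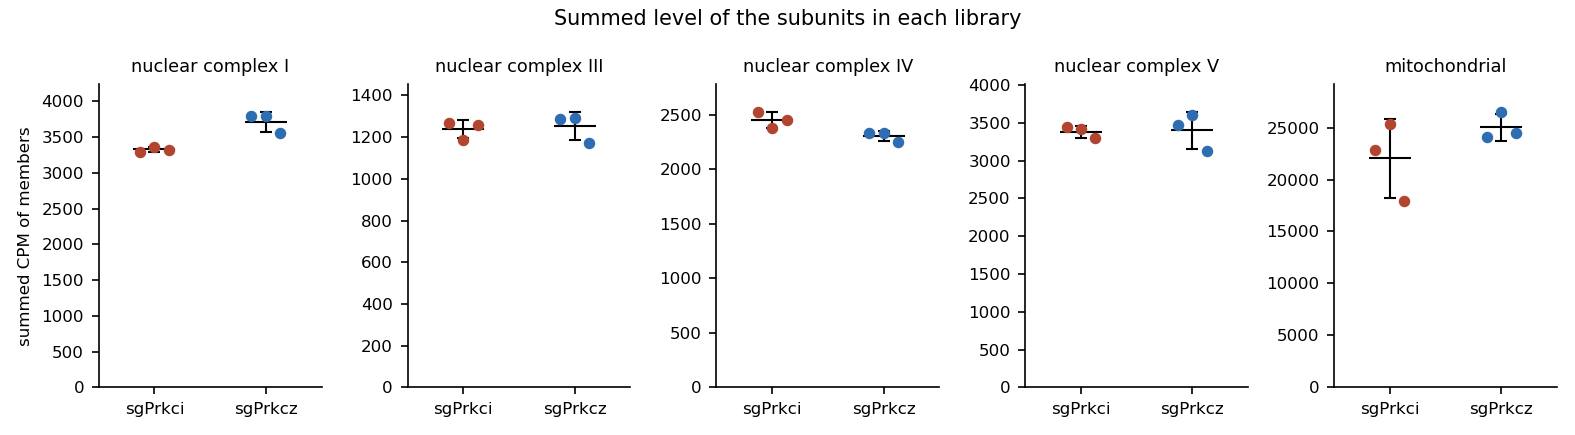
Summed CPM of the measured subunit genes in each library (points), with the mean and SD (n = 3 each), for the nuclear genes of each complex and for the mitochondrial genes. On this deposited scale the sgPrkci points lie below all sgPrkcz points for complex I, where the groups overlap with TMM, and above them for complex IV, and the groups overlap in the other 3 panels.

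In each complex the genes with the smallest adjusted p were picked among calls without overlap, so their separation follows from the choice. In complex I, the leading genes were accessory subunits, which surround the catalytic core. Ndufa5, of the arm that reaches into the matrix, had 55.8, 77.5 and 60.7 CPM in sgPrkci, against 129, 123 and 117 CPM in sgPrkcz. Every sgPrkci library lay well below every sgPrkcz library, at 0.526 of the mean (log2 fold change -0.93 ± 0.12, adjusted p = 1.24e-06). Ndufv3, next to the NADH-binding site, had 134, 154 and 131 CPM in sgPrkci, against 184, 245 and 204 CPM in sgPrkcz (-0.59 ± 0.10, adjusted p = 7.26e-05). Ndufa12, of the same arm, had 61.9, 64.5 and 68.2 CPM in sgPrkci, against 93.5, 102 and 90.7 CPM in sgPrkcz (-0.55 ± 0.11, adjusted p = 0.000235). The groups were apart in both. Ndufb9, at the far end of the membrane arm, had 80.7, 76.1 and 90.6 CPM in sgPrkci, against 120.2, 114 and 112 CPM in sgPrkcz, also without overlap (-0.48 ± 0.10, adjusted p = 0.000598).

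The 2 most abundant complex I genes did not pass. Ndufa6, of the matrix arm, averaged 322 ± 6.19 CPM in sgPrkci and 324 ± 23.2 CPM in sgPrkcz (SD, n = 3 each; log2 fold change -0.01, 95% interval -0.17 to 0.15), and Ndufb8, of the membrane arm, averaged 217 ± 3.44 CPM in sgPrkci and 225 ± 11.6 CPM in sgPrkcz (-0.05, interval -0.21 to 0.12). The complex I genes that were higher, both of the membrane arm and named here after their values were seen, were Ndufb2 (48.2 ± 5.30 CPM in sgPrkci, 33.2 ± 1.79 CPM in sgPrkcz, 0.52 ± 0.14, adjusted p = 0.0043) and Ndufb6 (83.2 ± 7.01 CPM in sgPrkci, 61.4 ± 10.4 CPM in sgPrkcz, 0.44 ± 0.13, adjusted p = 0.0069). Leaving out sgPrkci replicate 10 (0.39, adjusted p = 0.0515) or replicate 15 of sgPrkcz (0.30, adjusted p = 0.0548) ended the call of Ndufb6. Of the 12 complex I genes that were lower, 5 kept the call in each of 17 alternative settings (Ndufa5, Ndufa12, Ndufb9, Ndufv1 and Ndufv3).

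In complex III, genes moved in opposite directions. Uqcrh, the hinge protein that sits at cytochrome c1, had 247, 220.0 and 249 CPM in sgPrkci, against 157, 174 and 149.8 CPM in sgPrkcz. All sgPrkci libraries were above all sgPrkcz libraries, 1.49-fold in the mean (log2 fold change 0.57 ± 0.09, adjusted p = 1.75e-05). Uqcrq, a small subunit near cytochrome b, had 192, 171 and 199.9 CPM in sgPrkci, against 234, 236 and 250.4 CPM in sgPrkcz. It was lower without overlap (-0.36 ± 0.08, adjusted p = 0.00171).

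Uqcr10, another small subunit, had 77.3, 70.5 and 92.3 CPM in sgPrkci, against 105, 122 and 93.6 CPM in sgPrkcz (-0.41 ± 0.12, adjusted p = 0.0072). Uqcrc1, a core protein on the matrix side, had 152, 140.1 and 148 CPM in sgPrkci, against 183, 212 and 164 CPM in sgPrkcz (-0.33 ± 0.10, adjusted p = 0.00737). Neither overlapped between groups, but the Uqcr10 groups were separated by little. Both calls were lost without sgPrkcz replicate 14 (-0.32, adjusted p = 0.053 for Uqcr10 and -0.24, adjusted p = 0.0594 for Uqcrc1) and with TMM. Uqcrb, which binds ubiquinone with cytochrome b, was higher with overlapping groups (225 ± 17.0 CPM in sgPrkci, 192 ± 18.1 CPM in sgPrkcz, 0.23 ± 0.09, adjusted p = 0.047), and the call was lost without sgPrkci replicate 10 (0.18) or 11 (0.21) and without sgPrkcz replicate 14 (0.17) or 15 (0.21), with adjusted p of 0.103 to 0.185.

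In complex IV, 4 of the 5 called genes were higher. Cox7a2l had 196, 172 and 181 CPM in sgPrkci, against 148, 133 and 128 CPM in sgPrkcz. The groups were apart (log2 fold change 0.43 ± 0.09, adjusted p = 0.000624). Its paralog Cox7a2, the subunit of complex IV in most tissues, had 261, 245 and 253 CPM in sgPrkci, against 240.3, 254 and 242 CPM in sgPrkcz (0.04, interval -0.12 to 0.20). The ratio of Cox7a2l to Cox7a2 was 0.753, 0.704 and 0.719 in sgPrkci and 0.614, 0.525 and 0.528 in sgPrkcz, without overlap. The muscle paralog Cox7a1 was at 3.91 to 4.20 CPM in sgPrkci and 3.77 to 5.93 CPM in sgPrkcz.

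Cox6a1, the isoform of most tissues, had 318, 309 and 320.0 CPM in sgPrkci, against 250.3, 242 and 257 CPM in sgPrkcz, with a wide gap between the groups (0.33 ± 0.08, adjusted p = 0.00107). Its heart and muscle isoform Cox6a2 did not exceed 1.88 CPM. Cox7b, a small subunit, had 269, 273 and 261 CPM in sgPrkci, against 239.6, 217 and 217 CPM in sgPrkcz (0.25 ± 0.08, adjusted p = 0.013). Cox5a, which binds beside the catalytic core, had 352, 317 and 371 CPM in sgPrkci, against 313, 279.9 and 277 CPM in sgPrkcz (0.26 ± 0.08, adjusted p = 0.0143). Neither of these overlapped, and Cox5a came close: its call was lost without sgPrkci replicate 10 (0.25, adjusted p = 0.0569) or 12 (0.21, adjusted p = 0.0774) or without sgPrkcz replicate 15 (0.23, adjusted p = 0.0555).

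Cox6c was the only complex IV gene called lower on the deposited scale or with TMM. It had 341, 339 and 329 CPM in sgPrkci, against 408, 441 and 434 CPM in sgPrkcz, and it is the nuclear gene of the complex with the highest mean over all 6 libraries. The groups were far apart (-0.34 ± 0.07, adjusted p = 0.00058). Of its 75-base windows near the 3′ end 28.4% also occur in another gene, Cox6c2, which was at no more than 1.11 CPM, and of the 69 fitted nuclear genes 51 had no such shared window.

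**Figure D5:**
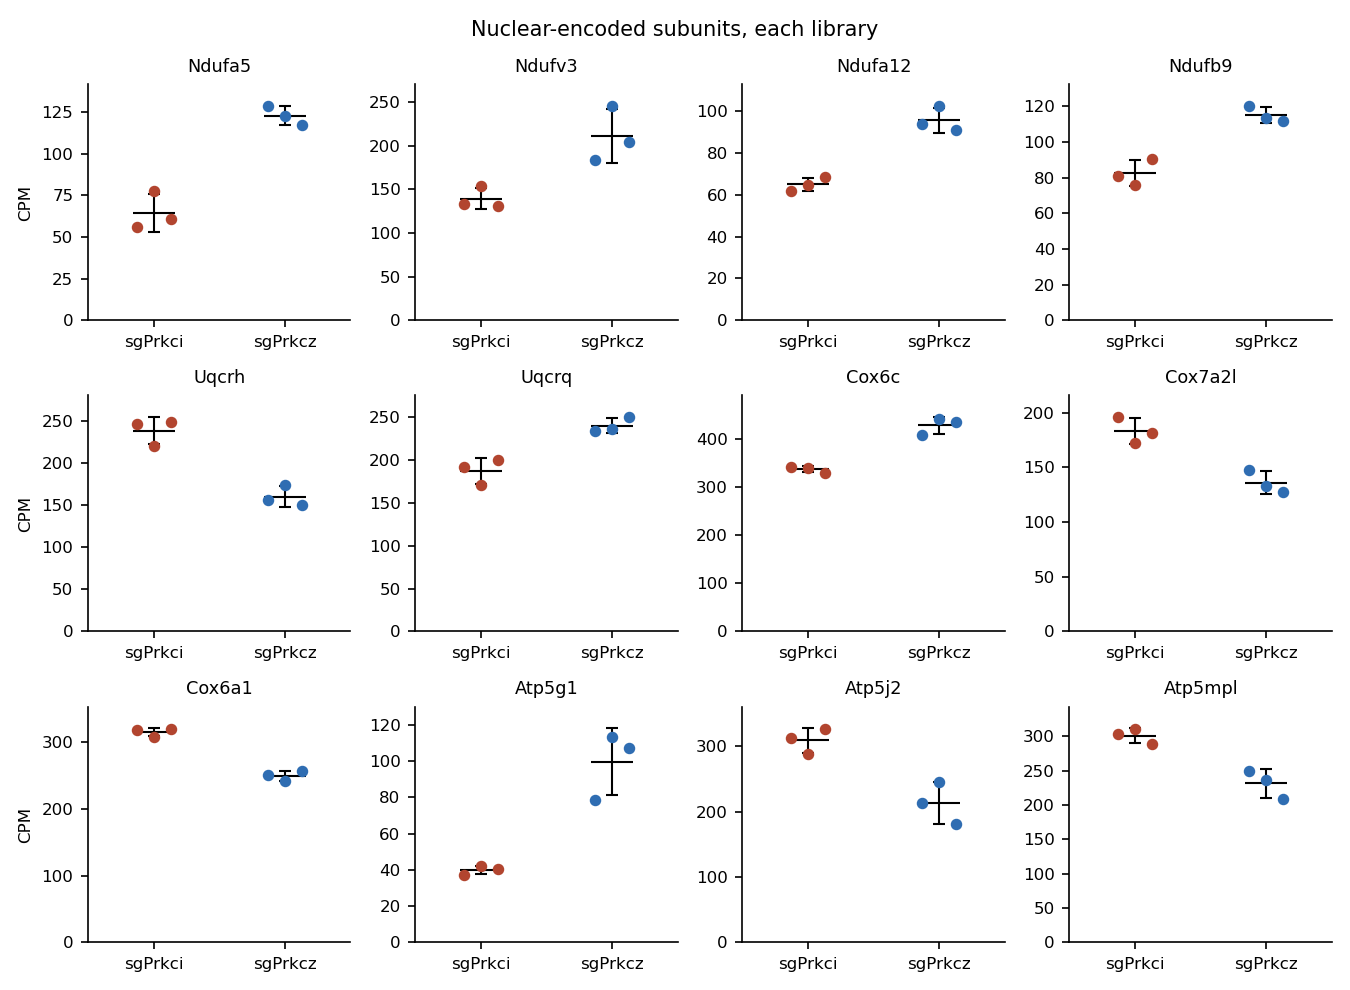
CPM of 12 nuclear subunit genes in each library (points), with the mean and SD (n = 3 each): Ndufa5, Ndufv3, Ndufa12, Ndufb9, Uqcrq, Cox6c and Atp5g1, which were lower in sgPrkci, and Uqcrh, Cox7a2l, Cox6a1, Atp5j2 and Atp5mpl, which were higher. These genes were picked among calls whose groups do not overlap, so no panel could show overlap. Of all fitted genes, 50.0% had groups that did not overlap. The largest fold is that of Atp5g1, at 37.3 to 42.0 CPM in sgPrkci and 78.6 to 114 CPM in sgPrkcz.

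In complex V, the proton-driven rotor is a ring of subunit c, for which Atp5g1, Atp5g2 and Atp5g3 encode the same mature protein with different import signals. Atp5g1 had 37.3, 42.0 and 40.5 CPM in sgPrkci, against 78.6, 114 and 107 CPM in sgPrkcz. It was the largest change among the fitted subunit genes, at 0.400 of the sgPrkcz mean (log2 fold change -1.28 ± 0.13, adjusted p = 7.5e-08). Atp5g3, which had the most counted tags of the subunit c genes, had 530.3, 569.8 and 456 CPM in sgPrkci, against 614, 649.5 and 586 CPM in sgPrkcz (-0.25 ± 0.08, adjusted p = 0.0143), without overlap. The Atp5g3 call was lost when sgPrkci replicate 12 (-0.16, adjusted p = 0.113) or replicate 14 of sgPrkcz (-0.22, adjusted p = 0.0655) was left out, and with TMM.

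Atp5g2 stood at 4.15 to 5.14 CPM in sgPrkci and 2.34 to 6.68 CPM in sgPrkcz, and 51.4% of the 75-base windows at its 3′ ends also occur in other genes, so its level is uncertain. Atp5g1 thus made up 6.53, 6.81 and 8.08% of the summed tags of the 3 genes in sgPrkci and 11.2, 14.8 and 15.4% in sgPrkcz. The 3 genes together were lower in each sgPrkci library (572, 617 and 501 CPM) than in any sgPrkcz library (699, 766 and 696 CPM). Of the Atp5g1 windows, 20.6% occur in other genes too, the most in Gm10039, which was at no more than 0.934 CPM.

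Several small subunits were higher. Atp5j2, subunit f of the membrane part, had 313, 289 and 326 CPM in sgPrkci, against 213, 245 and 181 CPM in sgPrkcz (0.54 ± 0.09, adjusted p = 7.74e-05). Atp5mpl, a short proteolipid, had 304, 311 and 289 CPM in sgPrkci, against 250.3, 236 and 208 CPM in sgPrkcz (0.38 ± 0.08, adjusted p = 0.000788). Atp5d, of the central stalk, had 178, 188 and 191 CPM in sgPrkci, against 158, 153 and 142 CPM in sgPrkcz (0.30 ± 0.09, adjusted p = 0.00748). All 3 were apart between groups.

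In the catalytic head, the alpha subunit was called lower on the deposited scale. Atp5a1, which encodes it and is the most abundant nuclear gene of the set, had 702, 614 and 580.3 CPM in sgPrkci, against 751, 812 and 659 CPM in sgPrkcz, with overlap. It was called lower (-0.23 ± 0.08, adjusted p = 0.0313), but not with TMM (-0.10, adjusted p = 0.318) and not without sgPrkci replicate 11 (-0.21) or 12 (-0.17) or sgPrkcz replicate 13 (-0.22) or 14 (-0.16), with adjusted p of 0.0731 to 0.169. Its catalytic partner Atp5b, named after its value was seen, averaged 322 ± 17.6 CPM in sgPrkci and 320.4 ± 28.3 CPM in sgPrkcz (0.01, interval -0.16 to 0.18).

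The nuclear genes with the largest called changes had no promoter motif in common among those searched. A promoter here is the stretch 250 bases before to 50 bases after the start in RefSeq (GRCm38.p6), and 60 of the 74 nuclear genes matched one by symbol. Both strands were searched for the NRF1 motif (GCGCA, any base, then GCGC), for CCGGAAG (ETS factors such as GABP), for AANATGGCG (YY1), for GGGCGG (SP1) and for the ESRRA motif (CAAGG followed by TCA). Promoters are printed for the nuclear genes at both ends of the range, the pair that fell most (Atp5g1 and Ndufa5) and the pair that rose most (Uqcrh and Atp5j2), 5′ to 3′ on the strand of the gene, all of them minus. Capitals mark a match to the NRF1, ETS or YY1 motif, which do not overlap in these windows. A further RefSeq start of Ndufa5, whose window holds the same NRF1 match, is not printed.
Atp5g1, chr11:96075582-96075881: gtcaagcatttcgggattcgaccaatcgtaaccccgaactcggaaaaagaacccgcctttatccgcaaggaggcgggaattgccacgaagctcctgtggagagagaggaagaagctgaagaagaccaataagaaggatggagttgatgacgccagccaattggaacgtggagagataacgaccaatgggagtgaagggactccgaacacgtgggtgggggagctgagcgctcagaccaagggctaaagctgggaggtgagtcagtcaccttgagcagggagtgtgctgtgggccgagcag
Ndufa5, chr6:24527477-24527776: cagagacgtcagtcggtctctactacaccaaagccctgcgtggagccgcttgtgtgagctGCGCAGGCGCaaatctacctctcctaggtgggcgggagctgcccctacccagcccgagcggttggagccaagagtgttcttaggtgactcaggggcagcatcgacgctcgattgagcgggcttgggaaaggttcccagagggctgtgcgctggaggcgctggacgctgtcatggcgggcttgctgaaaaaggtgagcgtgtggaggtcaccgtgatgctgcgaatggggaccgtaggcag
Uqcrh, chr4:116075021-116075320: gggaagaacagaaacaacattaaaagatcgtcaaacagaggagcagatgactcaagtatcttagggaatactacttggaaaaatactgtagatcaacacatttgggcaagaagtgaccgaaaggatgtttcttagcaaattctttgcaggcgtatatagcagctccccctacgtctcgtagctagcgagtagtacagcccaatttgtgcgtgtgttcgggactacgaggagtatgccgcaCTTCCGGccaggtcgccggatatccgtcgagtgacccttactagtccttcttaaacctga
Atp5j2, chr5:145191492-145191791: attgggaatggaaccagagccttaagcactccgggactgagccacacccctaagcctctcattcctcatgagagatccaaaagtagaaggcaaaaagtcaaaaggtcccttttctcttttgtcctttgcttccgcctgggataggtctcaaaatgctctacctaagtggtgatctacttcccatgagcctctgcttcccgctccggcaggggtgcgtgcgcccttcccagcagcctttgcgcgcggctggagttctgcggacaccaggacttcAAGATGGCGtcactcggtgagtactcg

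Atp5g1 held none of the motifs, Ndufa5 had 1 NRF1 match and an SP1 match, Uqcrh 1 ETS match (on the other strand) and Atp5j2 1 YY1 match. Over the 60 nuclear genes, 15 (25%) held the NRF1 motif, 14 (23.3%) the ETS motif and 10 (16.7%) the YY1 motif. Over all 27025 genes with a promoter the shares were 5.19%, 9.93% and 2.76%, and over the 7481 fitted genes 13.02%, 23.2% and 7.10%. By call, the ETS motif was in 4 of 10 genes higher in sgPrkci and in 1 of 15 lower, and the NRF1 motif in 1 of 10 higher and 4 of 15 lower. The YY1 motif was in 1 of 10 and 1 of 15, and the SP1 motif in 5 of 10 and 5 of 15. For ESRRA it was 0 of 10 and 1 of 15. Of the 31 genes not called, 8 held the ETS motif, 8 NRF1, 8 YY1, 11 SP1 and 0 ESRRA. Shares by call over all fitted genes were not counted, and these counts are small. The SP1 motif was in 22 of the 60 (36.7%), beside 38.2% of all genes with a promoter and 73.0% of fitted genes, and the ESRRA motif in 3 of the 60 (5%), beside 1.76% and 1.03%. The 60 include genes that were not fitted, so the shares of fitted genes are to be read against the 56 fitted nuclear genes. Of these 56, 13 (23.2%) held NRF1, 13 (23.2%) ETS, 10 (17.9%) YY1, 21 (37.5%) SP1 and 1 (1.79%) ESRRA. A match is a run of letters in a window, not a site that a factor was seen to bind.

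Genes that build or feed the chain without matching the symbols were read from lists. The shares of all fitted genes to read these lists against are 14.4% higher and 26.5% lower by limma, 21.2% and 19.3% with TMM, 21.0% and 20.2% by edgeR, and 15.2% and 14.1% by DESeq2. Of 16 fitted complex I assembly factors, limma called 0 higher and 7 lower (1 and 7 at an unadjusted p under 0.05, 1 and 5 with TMM, 1 and 6 by edgeR, 0 and 4 by DESeq2), among them Timmdc1 (20.7 ± 3.55 CPM in sgPrkci, 36.4 ± 1.63 CPM in sgPrkcz, log2 fold change -0.79 ± 0.16) and Ecsit (12.7 ± 3.51 CPM in sgPrkci, 25.6 ± 2.34 CPM in sgPrkcz, -0.99 ± 0.21). Of 5 for complex III, limma called 0 higher and 2 lower (0 and 3 at an unadjusted p under 0.05, 0 and 1 with TMM, 0 and 2 by edgeR, 0 and 1 by DESeq2): Bcs1l, which inserts the iron-sulfur subunit, at 7.09 ± 3.22 CPM in sgPrkci and 19.6 ± 2.88 CPM in sgPrkcz (-1.43 ± 0.28), and Ttc19 at 8.41 ± 2.85 CPM in sgPrkci and 15.5 ± 6.45 CPM in sgPrkcz with overlap (-0.77 ± 0.28). The Ttc19 call was lost without sgPrkci replicate 10 (-0.68, adjusted p = 0.121) or 12 (-0.61, adjusted p = 0.137), and without sgPrkcz replicate 13 (-0.70, adjusted p = 0.0884) or 15 (-0.49, adjusted p = 0.201). These values rest on few tags per library.

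Of 19 fitted complex IV assembly factors, 1 was higher and 8 were lower (with TMM 2 and 6), beside 14.4% higher and 26.5% lower of all genes (with TMM 21.2% and 19.3%). Cox10, which makes the heme A precursor, had 18.1, 23.8 and 13.5 CPM in sgPrkci, against 50.8, 68.4 and 66.1 CPM in sgPrkcz (-1.71 ± 0.18, adjusted p = 9.83e-08). Coa3, which works on newly made Co1 protein, averaged 44.2 ± 10.1 CPM in sgPrkci and 94.2 ± 8.79 CPM in sgPrkcz (-1.09 ± 0.14, adjusted p = 1.82e-06). Neither overlapped between groups. Of the 3 complex V factors fitted, 0 were called by limma with or without TMM, by edgeR or by DESeq2, and 1 was lower at an unadjusted limma p under 0.05. Tmem70 gave -0.35 and Fmc1 -0.35.

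The list of factors for mitochondrial DNA, its transcripts and their stability had 0 higher and 7 lower of 16 fitted by limma (0 and 11 at an unadjusted p under 0.05, and 0 and 6 with TMM, by edgeR or by DESeq2), beside 14.4% higher and 26.5% lower of all genes by limma. Lrpprc, which binds and stabilises mitochondrial mRNAs, had 44.9, 49.5 and 34.1 CPM in sgPrkci, against 80.5, 103 and 95.4 CPM in sgPrkcz (-1.11 ± 0.14, adjusted p = 1.01e-06). Rexo2, an oligoribonuclease found in mitochondria, had 38.5, 36.0 and 35.2 CPM in sgPrkci, against 74.2, 82.8 and 79.6 CPM in sgPrkcz (-1.09 ± 0.12, adjusted p = 1.93e-07). Both were below the sgPrkcz range in every sgPrkci library.

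Transcription factors and coactivators split: 2 of 8 were higher and 1 lower, also with TMM. Ppargc1a, which encodes PGC-1α, had 40.7, 30.8 and 41.9 CPM in sgPrkci, against 18.5, 15.7 and 15.8 CPM in sgPrkcz (1.13 ± 0.17, adjusted p = 1.65e-05). Its relative Pprc1 had 5.66, 6.07 and 6.39 CPM in sgPrkci, against 14.8, 16.9 and 8.78 CPM in sgPrkcz (-0.999 ± 0.26, adjusted p = 0.00354). In both genes the groups were apart, in opposite directions.

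The list of carriers and pores held 6 genes that move ATP, ADP, phosphate and other metabolites across the mitochondrial membranes (Slc25a3, Slc25a4, Slc25a5 and Vdac1 to Vdac3), the uncoupling protein gene Ucp2, and Atpif1, which encodes an inhibitor of the ATP synthase. Of these 8, 1 was higher (Vdac2) and 5 lower under both scalings, beside 14.4% and 26.5% of all genes (with TMM 21.2% and 19.3%). Named after their values were seen, Ucp2 gave -0.75 ± 0.15 (adjusted p = 0.000484), and Atpif1 did not pass (-0.15, adjusted p = 0.227). Slc25a4, an ADP/ATP carrier, had 149, 169 and 168 CPM in sgPrkci, against 266, 309 and 246 CPM in sgPrkcz (-0.75 ± 0.09, adjusted p = 9.92e-07). Slc25a3, the phosphate carrier, had 644, 678 and 662 CPM in sgPrkci, against 894, 978 and 882 CPM in sgPrkcz (-0.47 ± 0.07, adjusted p = 9.48e-06). In both, no library of one group reached the other.

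In complex II, 1 of 4 genes was called higher and 0 lower by limma (the same at an unadjusted p under 0.05, by edgeR and by DESeq2). Sdhc, a membrane anchor, was higher (102, 92.9 and 106 CPM in sgPrkci, 78.3, 49.6 and 69.0 CPM in sgPrkcz, 0.63 ± 0.13, adjusted p = 0.000586), and Sdha, the catalytic subunit, gave -0.10 with an interval of -0.29 to 0.09. Of 8 fitted genes in the list of electron carriers and further subunits, 1 was higher and 2 lower (with TMM 2 and 2). Ndufab1, the acyl carrier protein that is also part of complex I, had 45.6, 53.2 and 55.0 CPM in sgPrkci, against 73.8, 89.1 and 89.5 CPM in sgPrkcz (-0.70 ± 0.12, adjusted p = 6.61e-05), and Etfb, of the electron-transfer flavoprotein, averaged 32.3 ± 4.11 CPM in sgPrkci and 47.2 ± 7.31 CPM in sgPrkcz (-0.53 ± 0.15, adjusted p = 0.00634). Without sgPrkcz replicate 13 Etfb was not called (-0.41, adjusted p = 0.0518). With all libraries, neither Ndufab1 nor Etfb overlapped between groups.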

How the data were processed

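QuantSeq 3′ libraries of 3 sgPrkci and 3 sgPrkcz MTO samples were analysed. The authors deposited CPM, scaled to the same total in every library. Build GRCm38 is per the labels; the study's software list names Lexogen's QuantSeq DE pipeline on the BlueBee cloud without saying for which step, and the sources state neither its aligner and counting settings nor its annotation or handling of molecular identifiers. The study names DESeq2 (GenePattern), which needs counts, so limma 3.58.1 (R 4.3.3) with an intensity trend was fitted to log2(CPM + 1) of genes that reached 5 CPM in 3 or more libraries, and p-values were adjusted over all 9558. Whole reads were recovered from the CPM steps (100% of values within 0.01 of a whole number) for edgeR 4.0.16 and DESeq2 1.42.0 as alternatives. On these reads edgeR called 2011 genes higher and 1930 lower. Other alternatives were TMM, quantile and 2 reduced scalings, filters (none, 10 CPM), pseudocounts (0.1, 10), no trend, and leaving out each library. Sums and ratios are descriptions without a test, and of the ratios only that of the mitochondrial to the nuclear sum was planned. GENCODE M21 symbols matched 20675 of 20756 genes. Windows of 75 bases over the last 300 bases of transcripts were compared between genes.

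Named genes are all mitochondrial members; in each complex the 4 nuclear genes with the smallest adjusted p among non-overlapping calls, and the 2 most abundant; tissue isoforms and paralogs; and 2 genes per list. The members, lists and tests were chosen with earlier results of these data known.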

Additional observations from a re-analysis of the deposited data

How the results depend on the processing

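No paired analysis was made, since the labels do not say whether libraries of the groups were matched. Of the nuclear genes, 6 of 12 called higher and 7 of 20 called lower kept the call in each of 17 alternatives, and of the mitochondrial genes 0 of 2. The same share was not counted over all called genes, so whether subunit genes kept their calls more or less often cannot be said. Without the intensity trend 6 nuclear genes were higher and 10 lower, and 0 mitochondrial genes lower. The same fit called 1105 of all 9558 genes higher and 2182 lower. Nuclear genes numbered 13 higher and 8 lower with DESeq2, 18 and 10 with TMM, and 17 and 11 with edgeR. With quantile normalization they numbered 13 and 14. Without the mitochondrial genes and Gm42418 in the total they numbered 13 and 13, and without rRNA-like genes 14 and 13. All-gene counts were 1450 higher and 1350 lower with DESeq2, 2025 and 1847 with TMM, and 2011 and 1930 with edgeR. They were 1854 and 1926 with quantile normalization, and 1739 and 2136, then 1755 and 2126, with these reduced scalings. Mitochondrial genes numbered 2 higher and 0 lower with DESeq2, 2 and 1 with TMM or edgeR, and 1 and 1 with quantile normalization or either reduced scaling. The nuclear median log2 fold change was 0.0892 with DESeq2, 0.104 with TMM, 0.0873 with edgeR, 0.0447 with quantile normalization, 0.0495 when CPM were rescaled without the mitochondrial genes and Gm42418, and 0.0528 without rRNA-like genes (the reduced scalings). The cause was not tested. Leaving out 1 library gave 8 to 14 nuclear genes higher, 11 to 21 lower (11 without sgPrkcz replicate 14), 0 to 1 mitochondrial genes higher and 1 to 2 lower, and a nuclear median of -0.0698 to -0.00999. Over all genes these fits called 1059 to 1382 higher and 2110 to 2364 lower.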

Other observations

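The tRNAs between the mitochondrial mRNAs were read at low levels. Of 15 such genes analysed, 6 were fitted, of which 3 were called higher and 3 not called by limma on the deposited scale. Of all fitted genes 14.4% were called higher there. mt-Tm, next to mt-Nd2, had 97.7, 78.0 and 80.6 CPM in sgPrkci, against 58.2, 65.9 and 71.4 CPM in sgPrkcz (log2 fold change 0.38 ± 0.12, limma adjusted p = 0.0121). mt-Ti had 10.6, 11.2 and 8.52 CPM in sgPrkci, against 5.56, 4.39 and 5.85 CPM in sgPrkcz (0.82 ± 0.25, adjusted p = 0.0126). Both were higher in every sgPrkci library than in any sgPrkcz library, though mt-Ti rests on 7 to 28 reads per library. mt-Tv, between the ribosomal RNAs, was higher with overlapping groups (12.5 ± 2.54 CPM in sgPrkci, 7.67 ± 4.10 CPM in sgPrkcz, 0.72 ± 0.29, adjusted p = 0.0476), and rests on 10 to 37 reads per library. The other 3 did not pass: mt-Tq gave 0.34 (adjusted p = 0.138), mt-Tt 0.38 (adjusted p = 0.323) and mt-Tp 0.04 (adjusted p = 0.897). These genes were named after their values were seen. Whether such reads come from tRNA or from uncut transcripts cannot be told apart in 3′ tags.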
